A study of Mus musculus with 24 samples.

Results

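Mouse brain tumours that had received the immunotoxin D2C7-IT together with the antibody αCD40 were compared with tumours that had received αCD40 alone, at day 0, when the infusion ended. The comparison takes 6 of the 24 tumours of the series, assigned by their labels: tumours 5887, 5889 and 5880 are replicates 1, 2 and 3 of D2C7-IT + αCD40 (the combination), and tumours 5879, 5900 and 5885 are replicates 1, 2 and 3 of αCD40. Each tumour grew from 200000 CT-vIII cells placed in the right hemisphere of a mouse. CT-vIII is the mouse glioma line CT-2A, transduced with mouse EGFR variant III and firefly luciferase. From day 6 to day 9 after implantation, an osmotic pump infused the agents into the brain at 0.5 µl per h for 72 h (convection-enhanced delivery). The combination tumours received 0.2 µg of D2C7-IT with αCD40, and the αCD40 tumours the antibody without the toxin. The labels give the αCD40 dose (clone FGK4.5/FGK45) as a range of 10 to 300 µg, and not tumour by tumour, so both groups may mix doses. The sources used here do not give strain, age or sex of the mice. For reference, D2C7-IT alone and Vehicle were each given to 3 other tumours taken at day 0. Vehicle was a 2% MSA-PBS solution that carried rat IgG2a (clone 2A3, 100 µg) as control. A transplanted line stands in for a tumour that arose in place, and the frozen tissue was not sorted, so every value mixes tumour, brain, vessel and immune cells.

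D2C7-IT joins an antibody fragment that binds EGFR and its variant III to a part of Pseudomonas exotoxin A. Once inside a cell, the toxin inactivates elongation factor 2, the product of Eef2, by modifying its diphthamide residue, and protein synthesis stops. αCD40 is an agonist of CD40, a receptor on dendritic cells, macrophages and B cells that signals through TRAF adaptors to NF-kB and so raises costimulatory molecules and cytokines. NF-kB also drives the chemokines that draw neutrophils and monocytes out of the blood. The comparison asks what the toxin adds to the antibody.

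The 6 libraries held 31.8 to 44.6 M counted reads, among 24.7 to 48.1 M over the series. Levels below are CPM, counts scaled to a common library size after TMM, and the levels of gene lists are the mean log2 CPM of their tested members. Fold changes are log2 ± SE from edgeR, combination over αCD40. Marker levels differed within both groups. Egfr, whose reads come from the mouse gene and the transgene together, lay between 14.8 and 23.7 CPM in 5 of the 6 tumours and at 44.6 CPM in αCD40 replicate 3. The cell cycle list was highest in the same tumour, at 3.72 against 1.04 to 2.63 in the other 5. Every tumour piece held neuronal RNA, with a neuron list of 8.82 to 9.36 in the 6 libraries. Striatal neuron markers were highest in αCD40 replicate 1, and cortical markers were lowest in combination replicate 3. The part of these differences in the results below was not tested, except where a value without the tumour is given.

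No gene differed between the combination and αCD40 at an adjusted p under 0.05 (edgeR's quasi-likelihood test, Benjamini-Hochberg, 22280 genes, 0.0% called). The adjusted p was 1.0 for every gene, so each fold change below is given with its SE and without a p of its own. At an unadjusted p under 0.05 there were 197 genes, 0.884% of those tested, with 115 higher in the combination (0.516%) and 82 lower (0.368%). That is fewer than the proportion of 0.05 that would pass if no gene differed and p-values were evenly spread. Why fewer passed was not tested. The shares of lists below are set against these shares of all genes. All 3 combination tumours lay above all 3 αCD40 tumours for 594 genes (2.67%) and below them for 427 (1.92%). The median log2 fold change over all genes was 0.02, and 54.7% of genes were above 0. The median size of the fold change, without its sign, was 0.13. DESeq2 called 7 genes (0.0316% of 22141), 2 higher and 5 lower, and 273 genes passed its unadjusted p of 0.05 (1.23%). Of the 7, Cxcl2 and Col4a6 were detected in most of the 6 libraries.

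The other 5 of the DESeq2 calls rest on single tumours. Hoxc9, Hoxc4, Plac1 and Gm6634 had 0 counts in all 3 combination tumours and in αCD40 replicates 1 and 2. In αCD40 replicate 3, the tumour with the highest Egfr, Hoxc9 stood at 1.29 CPM (57 counts) and Hoxc4 at 0.771 CPM (34 counts). Gm6634, a predicted gene, had 12 counts there. Hoxc9 and Hoxc4 encode homeobox factors that pattern the trunk, and Plac1 (9 counts there) is best known from placenta. Igkv14-100, an immunoglobulin light chain segment, had 2 counts in combination replicate 2 and 0 in the other 5 libraries. None of these 5 is called by edgeR, and their fitted fold changes have no meaning as sizes, since one side is at 0.

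The genes on which the agents act overlapped between the groups. Eef2, the target of the toxin, had a log2 fold change of -0.05 ± 0.22 (95% interval -0.50 to 0.41), with 1156, 1249 and 1444 CPM in combination replicates 1 to 3 and 1257, 1357 and 1363 CPM in the αCD40 tumours. Among 11 genes of the toxin's target and of the pathway that makes diphthamide and processes the toxin, 8 were higher and 3 lower, with a median of 0.08. Dph7, an enzyme of the last steps of diphthamide synthesis, had the smallest p of that list (log2 fold change 0.12 ± 0.11). The Egfr fold change was -0.46 ± 0.95, and 0.27 without αCD40 replicate 3. Its 95% interval, -2.46 to 1.54, lies on both sides of 0. Here, as for every marker below, fewer cells of a type and less RNA per cell cannot be told apart in bulk tissue. Cd40 itself was at 1.93, 11.4 and 4.43 CPM in the combination and 1.60, 1.28 and 4.81 CPM under αCD40. The highest tumour was combination replicate 2, the groups overlapped, and the log2 fold change was 1.2 ± 0.84. It was 0.31 without combination replicate 2 and 2.04 without αCD40 replicate 3.

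Genes of CD40 and NF-kB signalling were highest in combination replicate 2, whose list level of 4.51 compares with 2.83 and 3.42 in combination replicates 1 and 3 and with 2.79, 2.91 and 3.87 in the αCD40 tumours. Of 26 members tested, 22 had a log2 fold change above 0, with a median of 0.33 against 0.02 over all genes. None had its groups apart, and 1 passed an unadjusted p of 0.05 as higher (3.85% of the list, against 0.516% of all genes). That member is Icam1, the endothelial and leukocyte adhesion molecule, at 13.8, 119.7 and 29.5 CPM in the combination and 12.3, 11.2 and 28.7 CPM under αCD40 (log2 fold change 1.64 ± 0.77). Tnfaip3, which encodes the NF-kB inhibitor A20, stood at 11.4, 72.4 and 12.1 CPM against 10.1, 8.92 and 18.9 CPM (log2 fold change 1.34 ± 0.68). For both genes combination replicate 2 was the highest of the 6, and combination replicates 1 and 3 lay within or near the αCD40 range. Without combination replicate 2 the list median was -0.19, the Icam1 value 0.31 and the Tnfaip3 value -0.10.

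Among genes named for an unadjusted p under 0.05, at least 1 CPM and no overlap, Cxcl2 and Cxcl1 had the highest fold changes. These 2 neighbouring chemokine genes encode ligands of the neutrophil receptor CXCR2. Both lie on chromosome 5 of GRCm38 on the plus strand, Cxcl1 at chr5:90891241-90893115 and Cxcl2 at chr5:90903871-90905938. The sequence before each gene is shown because these neighbours have the highest fold change among the genes so named. In RefSeq's promoter table for GRCm38.p6, the windows from 250 to 31 bases before the start (chr5:90890995-90891214 and chr5:90903649-90903868) read as follows, 5′ to 3′ on the plus strand, with the longest run of letters common to both windows in capitals.
Cxcl1: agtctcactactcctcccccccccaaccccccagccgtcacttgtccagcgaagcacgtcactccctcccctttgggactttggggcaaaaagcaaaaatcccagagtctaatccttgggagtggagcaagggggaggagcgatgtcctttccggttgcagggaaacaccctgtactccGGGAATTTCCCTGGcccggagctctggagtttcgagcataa
Cxcl2: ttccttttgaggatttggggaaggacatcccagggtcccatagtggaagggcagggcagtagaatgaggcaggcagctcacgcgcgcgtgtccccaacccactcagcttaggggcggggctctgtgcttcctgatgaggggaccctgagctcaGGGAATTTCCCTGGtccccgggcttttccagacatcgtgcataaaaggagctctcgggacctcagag
The shared run, GGGAATTTCCCTGG, is 14 letters long and lies 71 to 58 bases before the start of Cxcl1 and 97 to 84 before that of Cxcl2. Searched on both strands, it occurs in 2 of 32851 windows of the same length (0.00609%), those of these genes themselves. The run was taken from these windows, so both hits were fixed in advance. The distances count from the RefSeq starts, which differ from the gene starts given above, for Cxcl2 by more than for Cxcl1. They therefore do not compare the place of the run in the 2 genes. Both genes belong to 1 family of neighbouring copies. The match describes the letters only, and no binding was measured.

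Cxcl1 was at 0.922, 25.7 and 0.822 CPM in combination replicates 1 to 3 and at 0.694, 0.511 and 0.499 CPM in the αCD40 tumours. The groups did not overlap, but replicates 1 and 3 of the combination lay close above the αCD40 tumours while replicate 2 was far above. The log2 fold change was 4.0 ± 1.09 (adjusted p = 0.0619 by DESeq2), and 0.62 without combination replicate 2. Cxcl2 was at 0.488, 10.3 and 0.497 CPM against 0.0801, 0.032 and 0.159 CPM. All 3 combination tumours were above all 3 αCD40 tumours, with replicate 2 again the highest. Its log2 fold change was 5.27 ± 1.33 (adjusted p = 0.0194 by DESeq2), on 398 counts over the combination group and 11 over the αCD40 group. Without combination replicate 2 it was 2.35.

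Combination replicate 2 also led for Csf3, which encodes G-CSF, the growth factor of neutrophils. Csf3 was at 0.0814, 1.53 and 0.195 CPM in the combination and 0.133, 0.0639 and 0.0681 CPM under αCD40 (log2 fold change 2.70 ± 1.17, 0.65 without combination replicate 2). Of 9 genes tested in this list, 6 were higher, with a median of 0.68. The 3 members with an unadjusted p under 0.05 are Cxcl1, Cxcl2 and Csf3 (33.3% of the list, against 0.516% of all genes), and 2 had all combination tumours above all αCD40 tumours (22.2%, against 2.67%). Without combination replicate 2 the median was -0.26. Of 15 neutrophil markers tested, 7 were higher and 8 lower, with a median of -0.15 (0.30 without αCD40 replicate 3), and S100a8 (a calprotectin subunit abundant in neutrophils) was at 0.516, 1.91 and 0.411 CPM against 0.747, 1.31 and 1.13 CPM.

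**Figure D1:**
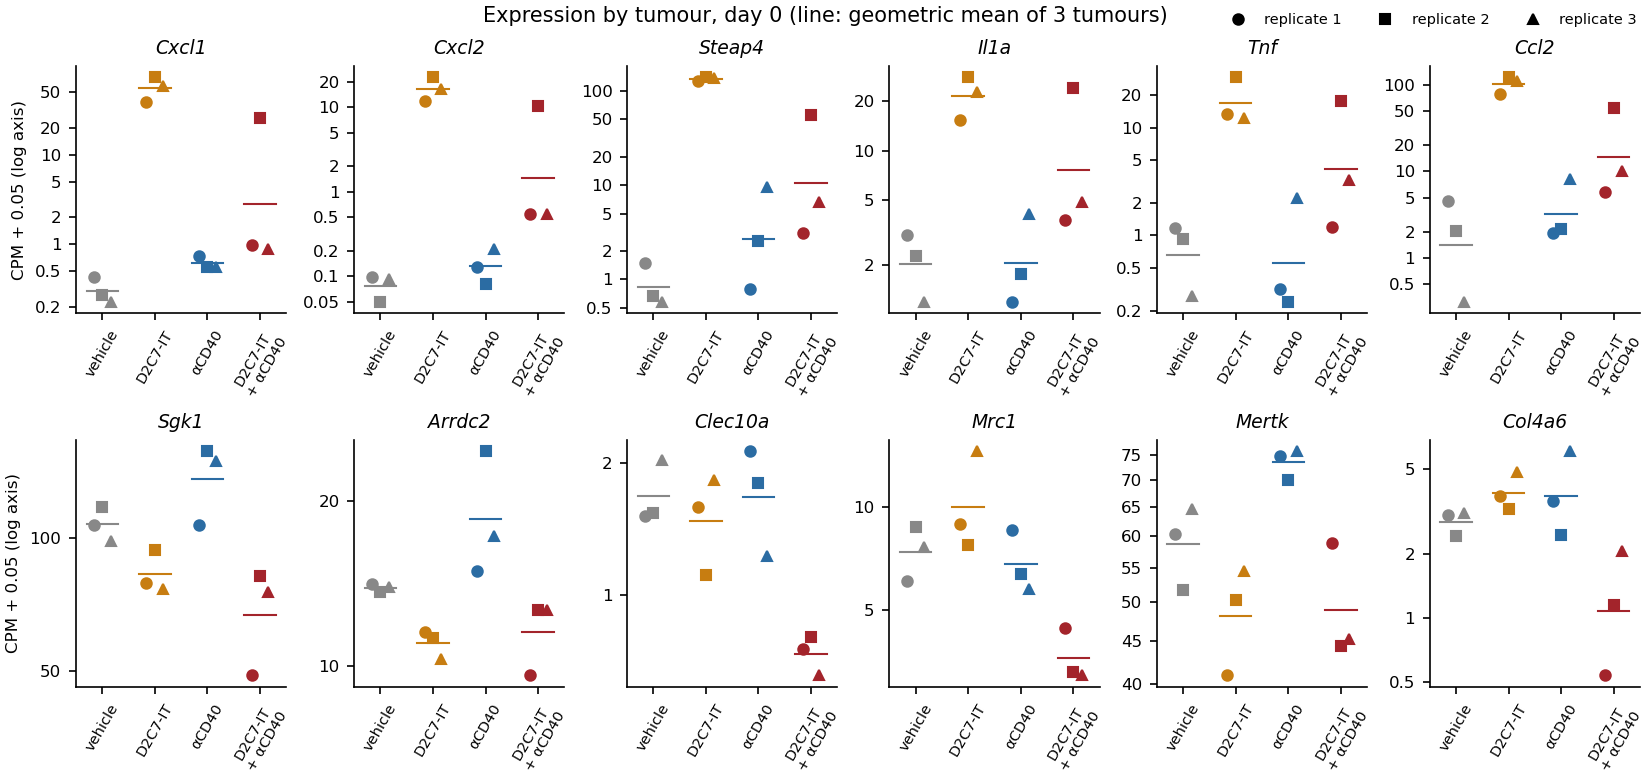
Level of 12 genes (CPM + 0.05, log axis) in each of 3 tumours of the 4 day 0 groups, with symbols for replicates 1 to 3 and a line at the geometric mean. In the upper row combination replicate 2 is the highest of the combination and αCD40 tumours. In the lower row all 3 combination tumours lie below all 3 αCD40 tumours.

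Inflammatory cytokines and monocyte chemokines were also highest in combination replicate 2. Il1a, encoding the alarm cytokine interleukin 1 alpha, was at 3.74, 24.1 and 4.80 CPM in the combination and 1.15, 1.73 and 4.06 CPM under αCD40, so only αCD40 replicate 3 reached the lower combination tumours. Its log2 fold change was 2.23 ± 0.65 and 0.88 without combination replicate 2. Tnf, encoding tumour necrosis factor, was at 1.14, 17.8 and 3.20 CPM against 0.267, 0.192 and 2.18 CPM, with combination replicate 2 the highest (log2 fold change 3.04 ± 1.19, 1.29 without that tumour and 4.98 without αCD40 replicate 3). For Il6, encoding interleukin 6, the levels were 0.163, 2.14 and 0.195 CPM against 0.187, 0.128 and 0.159 CPM, so combination replicate 2 stood above 5 tumours of 0.128 to 0.195 CPM (log2 fold change 2.35 ± 1.07, 0.18 without that tumour). These 3 are the members of the inflammatory cytokine list with an unadjusted p under 0.05, 12.5% of 24 against 0.516% of all genes. Of the 24, 17 were above 0, the median was 0.28, and it was -0.08 without combination replicate 2.

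Ccl2 and Ccl7, which encode chemokines that recruit monocytes through CCR2, gave 5.72, 54.0 and 9.97 CPM and 2.2, 23.1 and 4.56 CPM in the combination tumours. Under αCD40 Ccl2 was at 1.92, 2.14 and 8.05 CPM and Ccl7 at 1.47, 0.863 and 3.61 CPM. Their log2 fold changes were 2.52 ± 1.16 and 2.32 ± 1.09. For both, combination replicate 2 was the highest of the 6 tumours, and the values without it were 0.95 and 0.76. Ccl8, another ligand of the same family made by resident macrophages, was lower, at 1.79, 1.65 and 2.34 CPM against 3.47, 2.94 and 3.58 CPM with no overlap (log2 fold change -0.79 ± 0.53). Over the 17 chemokines of that list, these 3 included, the median was 0.03, with 9 higher and 8 lower.

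The acute-phase, stress and matrix genes named next were highest in combination replicate 2. Steap4, a metalloreductase induced in inflamed tissue, was at 3.04, 56.1 and 6.53 CPM in the combination and 0.747, 2.49 and 9.48 CPM under αCD40, with αCD40 replicate 3 above combination replicates 1 and 3 (log2 fold change 2.36 ± 0.93, 0.17 without combination replicate 2 and 3.76 without αCD40 replicate 3). Ptx3, a soluble pattern recognition protein, was at 2.79, 45.0 and 1.04 CPM against 0.267, 1.79 and 4.49 CPM (log2 fold change 2.89 ± 1.22, -0.20 without that tumour). Gdf15, a stress cytokine and p53 target, had 0.163, 4.37 and 0.411 CPM against 0.0267, 0.415 and 0.59 CPM (log2 fold change 2.23 ± 1.00, -0.25 without that tumour). The reactive astrocyte list had a median of -0.01, with 9 of 20 genes higher and 11 lower. Medians were -0.01 for metallothioneins and iron handling and -0.06 for matrix proteases and inhibitors. Both of these lists had 7 of 15 genes higher and 8 lower. The p53 and integrated stress response lists had medians of 0.02 over 20 genes and -0.12 over 22. Ppp1r15a, which encodes the phosphatase subunit that ends the integrated stress response, was the member of smallest p in the second (12.9, 47.0 and 16.1 CPM against 12.2, 14.8 and 13 CPM, log2 fold change 0.92 ± 0.50, 0.12 without combination replicate 2). Mmp3, stromelysin 1, which degrades matrix, differed from them in that its value changed little without that tumour. It was low throughout but apart, at 0.461, 0.694 and 0.346 CPM against 0.0801, 0.032 and 0.0908 CPM (57 and 8 counts per group), with a log2 fold change of 2.78 ± 0.92 and 2.48 without combination replicate 2.

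The genes called for D2C7-IT alone were also described in the combination. D2C7-IT against vehicle shares no tumour with the comparison of the combination with αCD40. It called 18 genes, all higher (0.0808% of 22280), with a median log2 fold change of 3.47, a value that is part of how they were chosen. In the combination against αCD40, 14 of these 18 were above 0, with a median of 0.31, and 4 had an unadjusted p under 0.05 as higher (22.2%, against 0.516% of all genes). Without combination replicate 2 they counted 5 above 0 and a median of -0.21. Combination replicate 2 lay above all 3 αCD40 tumours for 15 of the 18 genes, and replicates 1 and 3 for 4 and 3. Of all genes tested, 27.7%, 23.3% and 27.4% lay above all αCD40 tumours in combination replicates 1, 2 and 3. The mean level of the 18 genes was 3.77, 3.99 and 3.56 log2 CPM in the D2C7-IT tumours, 0.97, 2.72 and 1.00 in the combination, 0.74, 0.90 and 1.18 under αCD40 and 0.01, -0.12 and -0.31 in vehicle. Combination replicate 2 was thus the only one of the 3 above every αCD40 tumour. The levels in the D2C7-IT tumours are those on which the genes were chosen, so no comparison with them is made. Across all 22280 genes, the 2 sets of fold changes had a Pearson r of 0.25 and a Spearman rho of 0.06, given as a description, since genes are not independent.

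**Figure D2:**
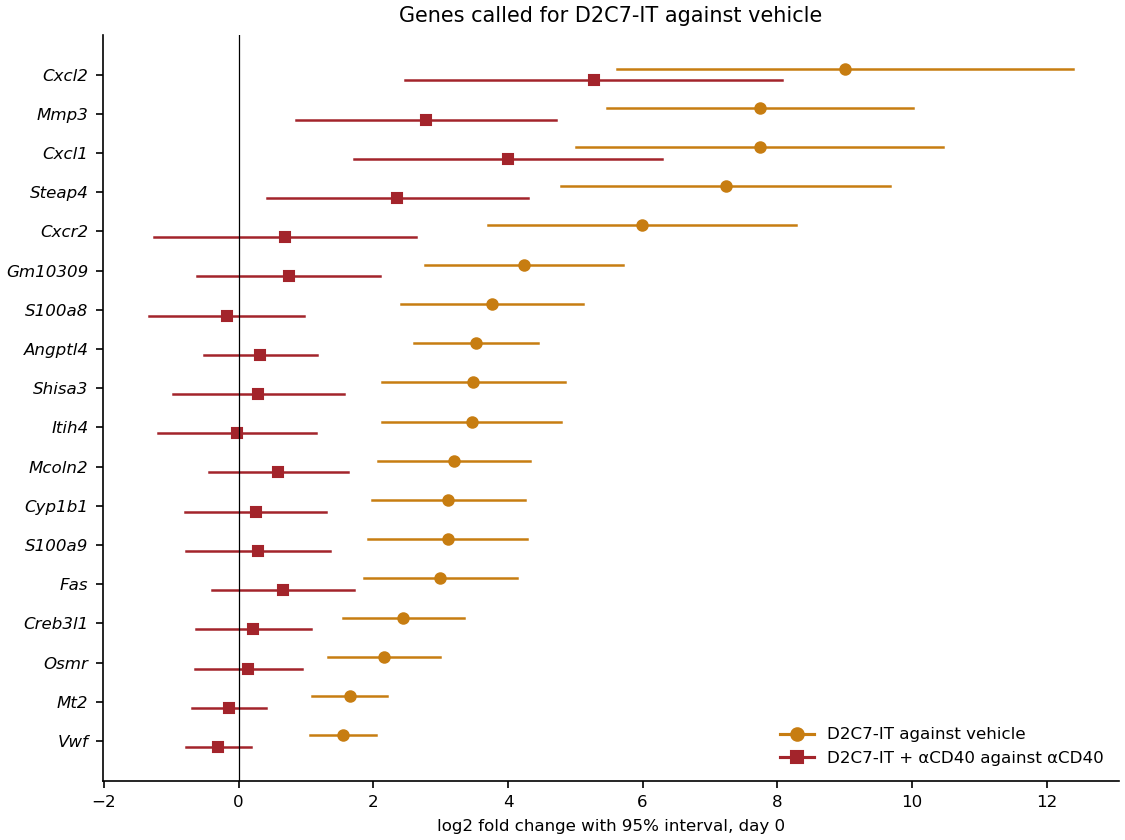
Log2 fold change with its 95% interval (horizontal axis) for the 18 genes called in D2C7-IT against vehicle at day 0 (circles), and the same genes in D2C7-IT + αCD40 against αCD40 (squares). The genes were chosen on the circles, whose size is therefore no finding, and the squares have a median of 0.31.

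The difference between the toxin's effect over αCD40 and its effect over vehicle was tested gene by gene. No gene was called (edgeR, 0.0% of 22280, smallest adjusted p = 0.307), and 360 had an unadjusted p under 0.05 (1.62%). DESeq2 called 7 (0.035% of 19981), all with the smaller effect over αCD40. Without combination replicate 2, edgeR called 4, S100a8, Angptl4, Cxcl1 and Vwf, each with an adjusted p of 0.0433 to 0.045. The 5 genes of smallest p at 1 CPM or more were Vwf, Angptl4, Mt2, S100a8 and Pf4. All but Pf4 are among the 18 genes above, which the same D2C7-IT and vehicle tumours chose, so the sign of their difference is not independent. Vwf, encoding von Willebrand factor of endothelium and platelets, was at 70.5, 115 and 84.6 CPM in the combination and 109.9, 123 and 100.1 CPM under αCD40, with 128, 116 and 129.9 CPM under D2C7-IT and 48.4, 45.5 and 33.9 CPM in vehicle. The αCD40 tumours overlapped the D2C7-IT tumours, and both lay above vehicle. The log2 fold change was -0.30 over αCD40 and 1.55 over vehicle, a difference of -1.85 ± 0.32. Angptl4, a secreted inhibitor of lipoprotein lipase, was at 6.08, 13.2 and 5.26 CPM in the combination, 6.89, 7.67 and 5.06 CPM under αCD40, 30.3, 34.7 and 23.3 CPM under D2C7-IT and 1.82, 3.17 and 2.69 CPM in vehicle. The difference between its 2 effects was -3.20 ± 0.58. For Mt2, a metallothionein, the difference was -1.80 ± 0.37, for S100a8 -3.94 ± 0.84 and for Pf4, platelet factor 4, -3.37 ± 0.77. Fas, encoding a death receptor, is also among the 18 and was at 3.34, 13.2 and 4.15 CPM in the combination against 3.47, 3.83 and 5.81 CPM under αCD40.

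Interferon-induced genes were high in 3 of the 6 tumours, combination replicates 2 and 3 and αCD40 replicate 3. The type I interferon list averaged 3.74, 5.08 and 5.09 in the combination and 3.31, 3.67 and 5.11 under αCD40. Of 26 members, 24 were above 0, the median was 0.45, and none had its groups apart or an unadjusted p under 0.05. With each tumour left out the median ran from 0.17 (without αCD40 replicate 1) to 1.26 (without αCD40 replicate 3). It was 0.28 without combination replicate 2, 0.26 without combination replicate 3, 0.26 without αCD40 replicate 2 and 0.73 without combination replicate 1. Ifit3, an antiviral interferon-induced gene, was at 53.1, 135 and 176 CPM against 34.8, 49.7 and 112 CPM (log2 fold change 0.90 ± 0.63, 0.53 without combination replicate 3, 0.59 without αCD40 replicate 1 and 1.53 without αCD40 replicate 3). Mx2, annotated as a polymorphic pseudogene, had the smallest p of the list, at 4.97, 24.8 and 13 CPM against 3.76, 3.96 and 7.28 CPM (log2 fold change 1.51 ± 0.75, 0.85 without combination replicate 2). For Mx2 only αCD40 replicate 3 lay above a combination tumour. Genes induced by interferon gamma had a median of 0.22 (19 of 26 above 0), which was 1.24 without αCD40 replicate 3. That median was -0.07 without combination replicate 3, -0.06 without αCD40 replicate 1 and -0.07 without αCD40 replicate 2. Cxcl10, which draws T cells through CXCR3, was at 22.4, 108 and 65.8 CPM against 11.2, 7.32 and 52.0 CPM (log2 fold change 1.47 ± 1.10, 0.91 without combination replicate 2 and 2.82 without αCD40 replicate 3). Cd274, encoding the checkpoint ligand PD-L1, was at 13.4, 41.5 and 64.1 CPM against 7.34, 13.8 and 49.8 CPM (log2 fold change 0.75 ± 0.79, 95% interval -0.90 to 2.39). Its value was 0.22 without combination replicate 3, 0.32 without αCD40 replicate 1 and 1.91 without αCD40 replicate 3. Ifng itself was near the floor, with 8 counts over the combination group and 38 over the αCD40 group, most of them in αCD40 replicate 3.

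The lists for antigen presentation by class I and class II had medians of opposite sign. The class I list had a median of 0.12 (-0.15 to 0.74 with each tumour left out) with 14 of 20 above 0, and the class II list -0.46 with 11 of 12 below 0. No member of either had an unadjusted p under 0.05. H2-Aa, a class II chain, was at 10.9, 27.4 and 55.2 CPM in the combination and 19.4, 22.5 and 149 CPM under αCD40 (log2 fold change -1.03 ± 0.95). Cd74, the invariant chain that escorts class II, was at 47.9, 91.7 and 182 CPM against 57.0, 91.8 and 415 CPM (log2 fold change -0.81 ± 0.93). For both, αCD40 replicate 3 was above all other tumours and the remaining 5 overlapped. Without that tumour the class II median turned to 0.62, H2-Aa to 0.58 and Cd74 to 0.53.

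**Figure D3:**
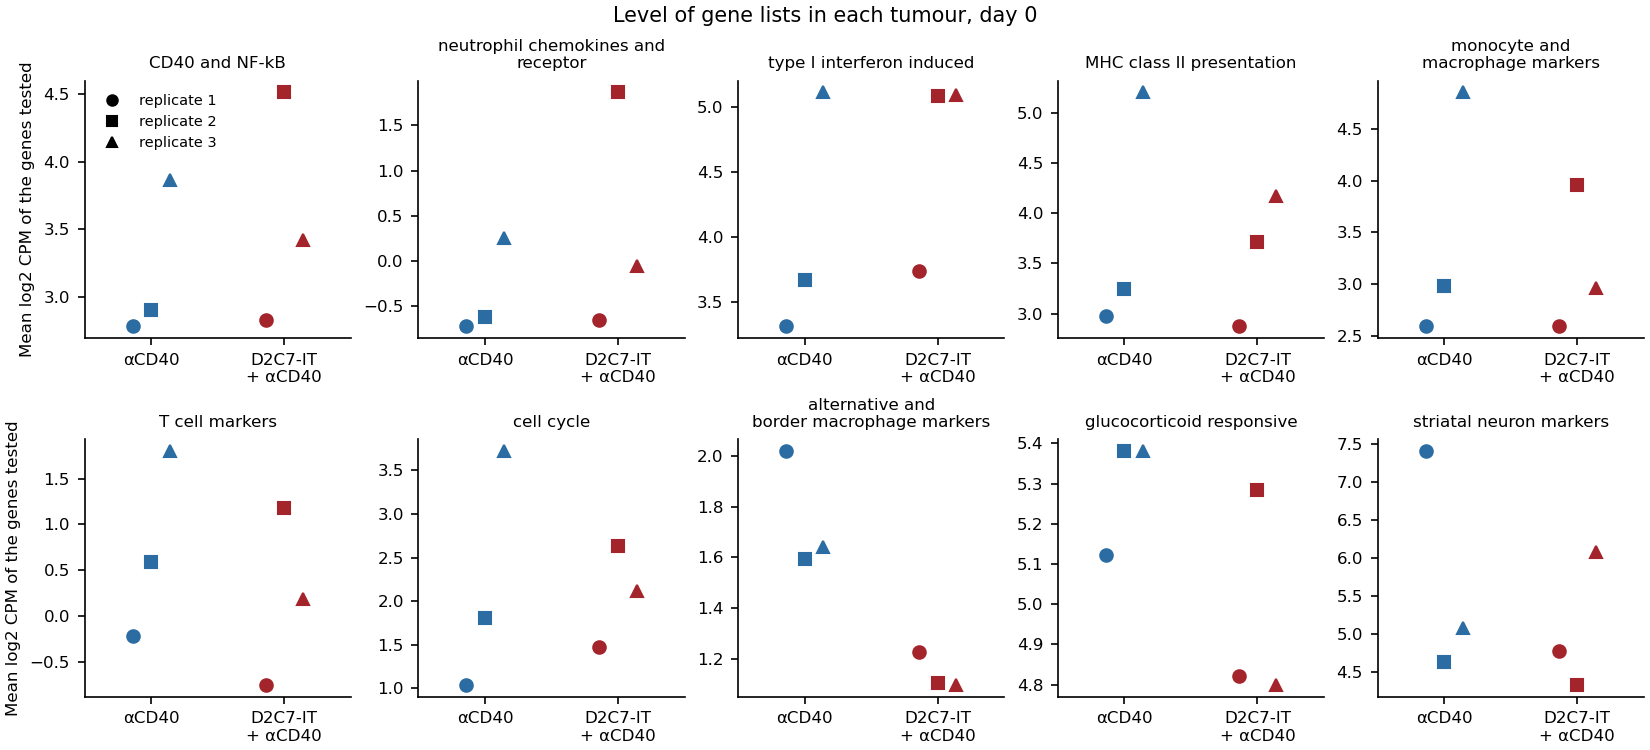
Mean log2 CPM of the tested members of 10 gene lists in each αCD40 tumour (left in each panel) and each combination tumour (right), with symbols for replicates 1 to 3. Combination replicate 2 leads the NF-kB and neutrophil chemokine lists, αCD40 replicate 3 the class II, monocyte, T cell and cell cycle lists, and for the border macrophage list the 3 combination tumours lie below the 3 αCD40 tumours.

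Lymphocyte and monocyte markers were lower in the combination by their medians, and in each case the sign rested on αCD40 replicate 3. Of 20 T cell markers 18 were below 0, with a median of -0.58 and 0.25 without that tumour. Of 18 cytotoxic and NK cell markers 16 were below 0, with a median of -0.58 and 0.74 without it. For 16 B and plasma cell markers the values were 15, -0.70 and 0.19, for 22 monocyte and macrophage markers 18, -0.53 and 0.58, and for 22 cell cycle genes 21, -0.48 and 0.64. No member of these 5 lists had an unadjusted p under 0.05 or groups apart. Cd8a, a coreceptor of cytotoxic T cells, was at 0.407, 3.59 and 0.995 CPM in the combination and 0.56, 2.14 and 6.42 CPM under αCD40. Gzmb, which encodes the protease granzyme B of cytotoxic cells, was at 1.28, 3.59 and 2.14 CPM against 1.07, 1.60 and 7.85 CPM. Lyz2, lysozyme of myeloid cells, was at 46.7, 119 and 79.1 CPM against 69.0, 68.6 and 426 CPM. In all 3 the highest value is αCD40 replicate 3 and the others overlap, and the intervals are wide, -2.96 to 1.2 for Cd8a, -3.02 to 1.83 for Gzmb and -3.14 to 0.73 for Lyz2. Top2a, a topoisomerase of dividing cells, was at 5.16, 14.5 and 10.3 CPM against 2.56, 7.32 and 54.6 CPM, the same tumour again being the highest.

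**Figure D4:**
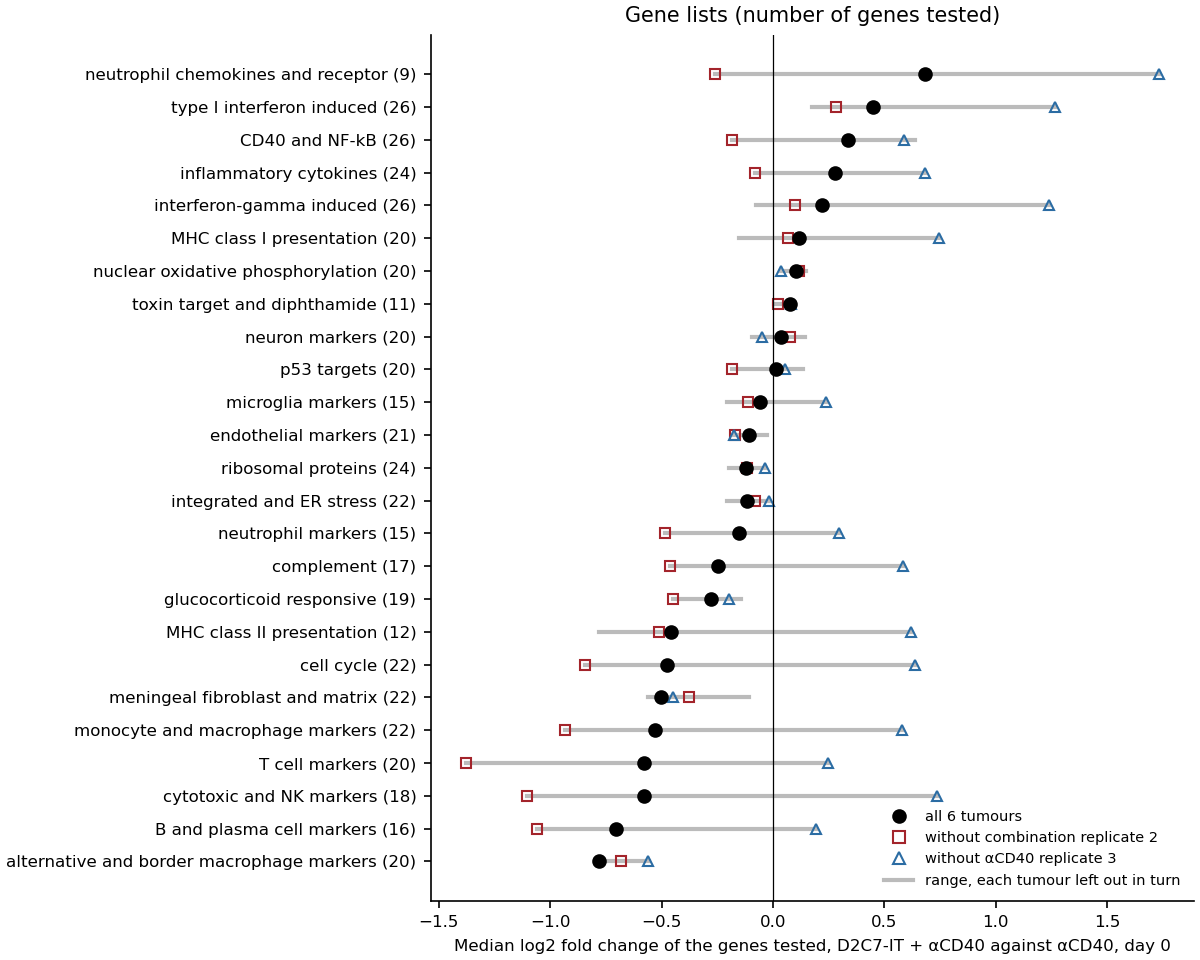
Median log2 fold change (horizontal axis) of 25 gene lists with all 6 tumours (filled circles), without combination replicate 2 (squares) and without αCD40 replicate 3 (triangles), with a grey bar for the range when each of the 6 tumours is left out in turn. The border macrophage and glucocorticoid lists stay below 0 throughout, as do the meningeal fibroblast, endothelial, ribosomal and stress lists. The lymphocyte, monocyte, class II and cell cycle lists cross 0 without αCD40 replicate 3.

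Markers of alternatively activated and border-associated macrophages, the long-lived macrophages of meninges and vessel sheaths, had a median below 0 whichever tumour was left out. Keeping the sign was not particular to them, since 16 of 48 list medians did so under every setting. Mast cell markers, low in level, are another such list (median -0.82, -1.22 to -0.27 with each tumour left out). The macrophage list averaged 1.22, 1.10 and 1.09 in the combination and 2.02, 1.59 and 1.64 under αCD40, with no overlap. Of 20 members tested, 18 were below 0 (90% of the list, against 45.2% of all genes) and the median was -0.78, between -0.79 and -0.56 with each tumour left out. Groups were apart for 3 members (15%, against 1.92% of all genes), and 2 had an unadjusted p under 0.05 (10%, against 0.368%). None was called. Clec10a, a galactose-binding lectin of macrophages and dendritic cells (chr11:70156197-70170834), was at 0.705, 0.752 and 0.606 CPM in the combination and 2.08, 1.76 and 1.18 CPM under αCD40. Every combination tumour was lower, with a log2 fold change of -1.28 ± 0.34. Mrc1, encoding the mannose receptor CD206 (chr2:14229392-14332057), was at 4.37, 3.24 and 3.16 CPM against 8.51, 6.33 and 5.69 CPM, again without overlap (log2 fold change -0.93 ± 0.35). F13a1, the coagulation factor XIII subunit made by these macrophages, overlapped between the groups, at 3.45, 6.22 and 3.16 CPM against 6.43, 5.37 and 15.5 CPM (log2 fold change -1.09 ± 0.53, -0.47 without αCD40 replicate 3). Ccl8, given above, is the third member with its groups apart.

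Under D2C7-IT alone both genes overlapped with vehicle, at 1.54, 1.06 and 1.78 CPM and 8.86, 7.71 and 14.5 CPM against 1.47, 1.49 and 1.98 CPM and 6.03, 8.71 and 7.58 CPM in vehicle. The difference between the toxin's effects was -1.11 ± 0.47 for Clec10a and -1.41 ± 0.49 for Mrc1, and neither passed after adjustment (adjusted p = 1 for both). Meningeal fibroblast and matrix genes were lower too, and their part in the macrophage values was not tested. Of 22 tested, 20 were below 0 with a median of -0.50, and -0.11 without αCD40 replicate 1, the tumour in which that list was highest (4.96, 4.13 and 4.36 under αCD40, 4.07, 3.77 and 4.28 in the combination). Without the same tumour the median of the macrophage list was -0.56. Ogn, osteoglycin of fibroblasts, was the member of smallest p, at 3.88, 2.92 and 6.21 CPM against 15.1, 6.49 and 7.44 CPM (log2 fold change -1.15 ± 0.63, -0.68 without αCD40 replicate 1). Microglia markers had a median of -0.06 over 15 genes, with 6 above 0 and 9 below (-0.21 to 0.24 with each tumour left out). For 1 of them all combination tumours lay below all αCD40 tumours (6.67%, against 1.92% of all genes). Mertk, a receptor for the uptake of dead cells on macrophages, microglia and astrocytes (chr2:128698956-128802894), was at 58.8, 44.3 and 45.2 CPM in the combination and 74.7, 70.0 and 75.7 CPM under αCD40. It was lower in all 3 combination tumours (log2 fold change -0.57 ± 0.16).

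The median of glucocorticoid-responsive genes also kept its sign with each tumour left out. Glucocorticoids act on a nuclear receptor that raises these genes in brain and immune cells. Of 19 tested, 16 were below 0, with a median of -0.28 and -0.45 to -0.14 with each tumour left out. All combination tumours were below all αCD40 tumours for 4 members (21.1%, against 1.92% of all genes), and 2 had an unadjusted p under 0.05 (10.5%, against 0.368%). Sgk1, the serum- and glucocorticoid-regulated kinase (chr10:21882184-21999903), was at 48.8, 82.0 and 75.6 CPM in the combination and 107, 158 and 149.7 CPM under αCD40. The groups did not overlap, and the log2 fold change was -1.0 ± 0.23, with an unadjusted p that was the smallest of the genes named here. Its level was 79.2, 94.2 and 76.8 CPM under D2C7-IT and 107, 118 and 98.8 CPM in vehicle, so αCD40 replicates 2 and 3 were above all tumours of the other groups and αCD40 replicate 1 lay in the vehicle range. Arrdc2, an arrestin-domain protein, was at 9.55, 12.6 and 12.6 CPM against 14.8, 24.6 and 17.2 CPM (log2 fold change -0.70 ± 0.22). Hif3a, encoding a hypoxia-inducible factor subunit, was at 13.2, 7.58 and 8.76 CPM against 16.2, 18.7 and 17.5 CPM, also apart, but with an unadjusted p above 0.05. Tsc22d3, which encodes the glucocorticoid mediator GILZ, overlapped between the groups, with combination replicate 3 (82.4 CPM) inside the αCD40 range of 72.8 to 99.2 CPM (log2 fold change -0.47 ± 0.25). Klf2, a transcription factor of quiet endothelium and lymphocytes counted among the immediate early genes here, was at 13.9, 12.3 and 13.9 CPM against 23.7, 19.5 and 14.3 CPM (log2 fold change -0.52 ± 0.21).

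Vessel genes were mixed. Of 21 endothelial markers 7 were above 0 and 14 below, with a median of -0.11. The groups were apart for 2 members as higher (9.52%, against 2.67% of all genes) and for 4 as lower (19%, against 1.92%), and none had an unadjusted p under 0.05. Sele, encoding E-selectin, the leukocyte adhesion molecule of inflamed endothelium, was at 1.19, 4.45 and 1.95 CPM in the combination and 0.934, 0.256 and 0.545 CPM under αCD40 (log2 fold change 2.12 ± 1.03). Kdr, the VEGF receptor, was at 19.1, 23.4 and 22.4 CPM against 17.4, 16.6 and 18.3 CPM. Emcn, endomucin, which limits leukocyte adhesion, was lower, at 4.94, 6.01 and 5.62 CPM against 6.30, 7.64 and 6.85 CPM. Mfsd2a, a lipid transporter of the blood-brain barrier, was at 19.8, 15 and 19.5 CPM against 20.8, 23.1 and 21.6 CPM. Nostrin, which binds endothelial nitric oxide synthase, was at 5.16, 3.93 and 4.76 CPM against 6.62, 6.87 and 6.78 CPM (log2 fold change -0.55 ± 0.22). Sele, Kdr, Emcn, Mfsd2a and Nostrin each had no overlap between the groups. Col4a6, a basement membrane collagen chain (chrX:141165403-141474076), had the lowest fold change of the genes named by the rule on level and overlap, at 0.488, 1.10 and 2.01 CPM against 3.5, 2.40 and 5.99 CPM. Its log2 fold change was -1.72 ± 0.41 (adjusted p = 0.0471 by DESeq2), and -1.66 without combination replicate 2. Under D2C7-IT and vehicle it was at 3.66, 3.18 and 4.75 CPM and 2.98, 2.36 and 3.04 CPM.

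The remaining genes named by the rule (unadjusted p under 0.05, at least 1 CPM, groups apart) were of unlike function. In all, 13 genes passed it as higher and 14 as lower, and the 10 of largest fold change each way are named. Among the higher ones, Olfm4, an olfactomedin of gut stem cells and a subset of neutrophils, was at 2.90, 1.85 and 1.71 CPM in the combination and 0.961, 0.799 and 1.13 CPM under αCD40 (log2 fold change 1.15 ± 0.48). Smtnl2, a smoothelin-like protein, was at 1.11, 1.21 and 1.64 CPM against 0.641, 0.543 and 0.567 CPM (log2 fold change 1.18 ± 0.54). Tdrd5, a tudor-domain protein of germ cells, had 3.77, 2.66 and 2.88 CPM against 1.63, 1.69 and 1.72 CPM (log2 fold change 0.88 ± 0.40). These 3 are low in level, and none was led by combination replicate 2. Lrrc29 (0.61 ± 0.23), Lcmt2 (0.38 ± 0.18), Ankrd39 (0.38 ± 0.15), Dnhd1 (0.36 ± 0.16) and Psmf1, a proteasome inhibitor (0.27 ± 0.11), had log2 fold changes under 1. Among the lower ones, Mlph, which tethers melanosomes to myosin, was at 1.84, 2.98 and 2.03 CPM against 4.03, 3.71 and 5.10 CPM (log2 fold change -0.91 ± 0.33). Galnt15, a glycosyltransferase, was at 6.51, 6.88 and 6.4 CPM against 7.55, 11.2 and 12.3 CPM (log2 fold change -0.65 ± 0.30).

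Metabolic and ribosomal lists had small medians. Of 20 nuclear genes of oxidative phosphorylation 17 were above 0 with a median of 0.10, and 5 had all combination tumours above all αCD40 tumours (25%, against 2.67% of all genes). The list averaged 7.27, 7.24 and 7.27 in the combination and 7.24, 7.25 and 7.04 under αCD40, where replicate 3 was the lowest, and its median was 0.04 without that tumour. Uqcrc2 of complex III was at 148, 141 and 144 CPM against 134, 132 and 119 CPM, and Ndufa9 of complex I at 96.7, 102 and 96.0 CPM against 91.3, 90.4 and 83.7 CPM. All 24 ribosomal protein genes tested were below 0, with a median of -0.12, and so were all 13 mitochondrially encoded genes, with a median of -0.17. All combination tumours lay below all αCD40 tumours for 1 ribosomal gene (4.17%) and 2 mitochondrial genes (15.4%), against 1.92% of all genes. The ribosomal median was -0.04 with 7 genes above 0 without αCD40 replicate 3, -0.06 with 5 above 0 without combination replicate 1 and -0.20 without αCD40 replicate 1. The mitochondrial median was -0.07 without combination replicate 2, -0.08 without αCD40 replicate 1, -0.11 without αCD40 replicate 2 and -0.26 without αCD40 replicate 3. No member of these 3 lists had an unadjusted p under 0.05.

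Neuronal markers as a whole did not separate the groups, with a median of 0.04 over 20 genes, but regional ones differed by tumour. Ppp1r1b, encoding DARPP-32 of striatal neurons, was at 159, 107 and 198 CPM in the combination and 714, 101 and 142 CPM under αCD40, where replicate 1 was far above the other 5 tumours. All 15 striatal markers were below 0 with a median of -1.04, and the median was 0.51 without αCD40 replicate 1. Neurod2, a factor of cortical and hippocampal excitatory neurons, was at 119, 173 and 2.36 CPM against 63.6, 74.2 and 86.3 CPM, with combination replicate 3 nearly without it. Tcf7l2, high in thalamic neurons, was at 4.04, 26.7 and 68.1 CPM against 11.4, 14 and 23.9 CPM, and highest in that same tumour. Prox1, of dentate granule cells, was at 12.7, 64.4 and 42.7 CPM against 12.6, 20.9 and 28.1 CPM, and highest in combination replicate 2.

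At day 3, a separate set of 3 combination and 3 αCD40 tumours was compared in the same way. No gene was called (edgeR, 0.0% of 22280, smallest adjusted p = 0.0522), and 2469 had an unadjusted p under 0.05 (11.1%), 815 higher (3.66%) and 1654 lower (7.42%). Egfr was at 329.6, 15.8 and 19.6 CPM in the day 3 αCD40 tumours and 22.4, 17.9 and 20.7 CPM in the day 3 combination tumours, and its part in the day 3 values was not tested. Of the 20 genes named by the rule at day 0, 17 had the same sign at day 3, among them 8 of the 10 higher and 9 of the 10 lower. The share of all genes with the same sign on both days is not given here, so this count has no background beside it. For 6 of the 20 the day 3 value had the same sign and an unadjusted p under 0.05. Cxcl1 was at 2.26, 22.2 and 21.4 CPM in the day 3 combination tumours and 0.17, 0.533 and 0.287 CPM in the day 3 αCD40 tumours. All 3 combination tumours were above all 3 others (log2 fold change 5.53 ± 1.18, adjusted p = 0.119). Steap4 was at 15.2, 76.5 and 108 CPM against 1.51, 1.98 and 2.19 CPM, likewise apart (log2 fold change 5.13 ± 1.05, adjusted p = 0.115).

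Over the 18 genes called for D2C7-IT against vehicle, the day 3 median of the combination against αCD40 was 1.07, with 16 above 0 and 10 with all combination tumours above all αCD40 tumours (4.97% of all genes), against 3 at day 0. The difference between days was not tested. Clec10a was lower at day 3 too, at 0.852, 0.814 and 0.85 CPM against 1.39, 1.27 and 2.61 CPM (log2 fold change -1.07 ± 0.33), with no overlap (4.78% of all genes lay below in this way). Mrc1 overlapped between the groups at day 3, at 7.59, 4.07 and 3.32 CPM against 5.31, 5.77 and 11.9 CPM (log2 fold change -0.62 ± 0.35). The macrophage list had a median of -0.46 at day 3. Sgk1 overlapped as well (log2 fold change -0.33 ± 0.23), the glucocorticoid list stood at 0.63, above 0, and Col4a6 was at -0.06 ± 0.40. Galnt15 had the opposite sign on the 2 days, -0.65 ± 0.30 at day 0 and 0.79 ± 0.30 at day 3.

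**Figure D5:**
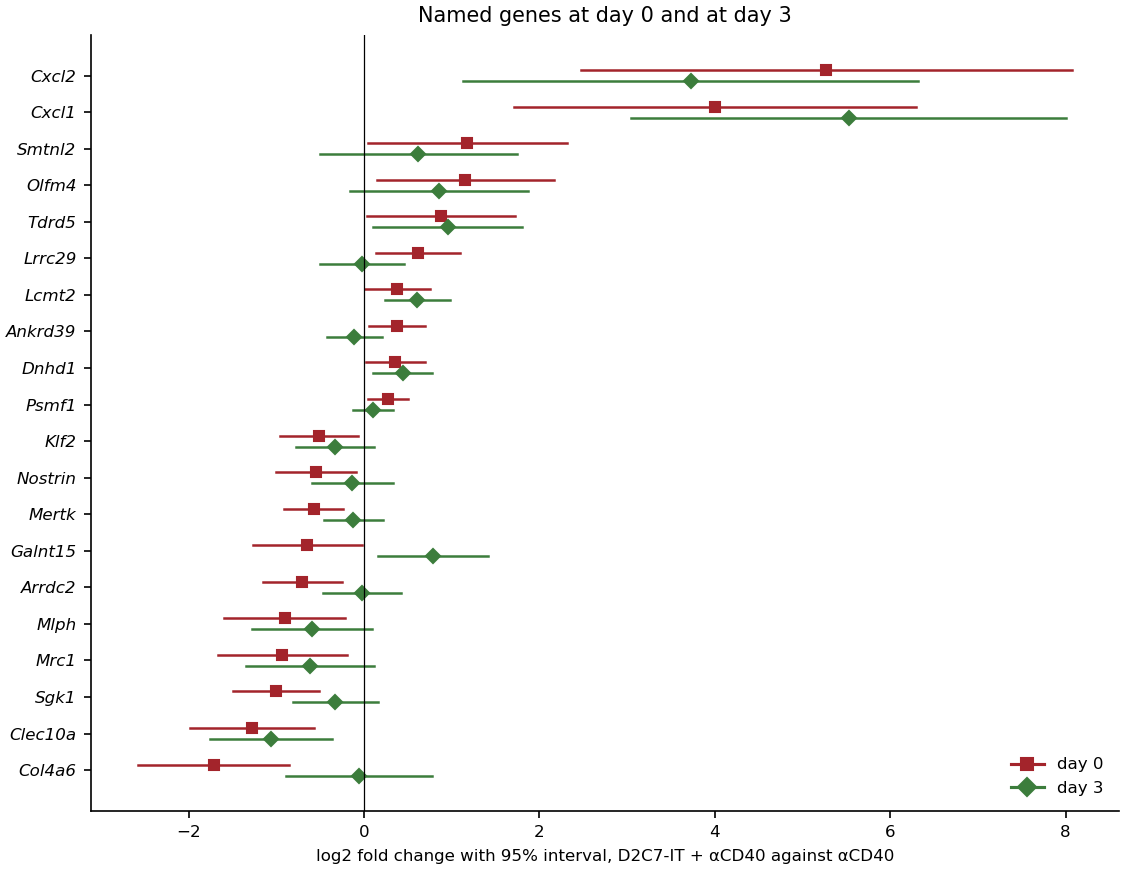
Log2 fold change of D2C7-IT + αCD40 against αCD40 with its 95% interval (horizontal axis) at day 0 (squares) and at day 3 (diamonds), from separate tumours, for the 10 genes of highest and the 10 of lowest day 0 fold change named by the rule. The genes were chosen on their day 0 values, 17 of the 20 have the same sign at day 3, and Galnt15, Lrrc29 and Ankrd39 do not.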

How the data were processed

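The authors deposited raw counts per Ensembl gene, as integers without scaling. Tools in the submitters' processing notes are STAR 2.5.2b, Trimmomatic 0.36, bcl2fastq 2.17 and, for featureCounts, Subread 1.5.2. The build there is GRCm38, and the sources used here name no annotation release. Per the labels' protocols, oligo(dT) beads selected mRNA from frozen tumours, and libraries came from the NEBNext Ultra kit, which does not mark strand, so reads of overlapping genes on opposite strands cannot be told apart, and genes with near-identical copies (such as H2 genes) are uncertain. The 6 tables hold 36 columns of 49315 genes, 12 of them repeats of another column with 0 that differ, for 24 tumours. Symbols and gene positions are from GENCODE M21, which names 49056 genes.

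In R 4.3.3 with edgeR 4.0.16, filterByExpr by group left 22280 genes, TMM set the library scale, and the robust quasi-likelihood fit took all 24 libraries with a mean for each of 8 groups. It had 16 residual degrees of freedom and a common biological coefficient of variation of 0.41. Calls are at a Benjamini-Hochberg adjusted p under 0.05. Unadjusted p counts are from this fit. DESeq2 1.42.0, other scaling, filters and sets of libraries were alternatives. Log2 CPM use a prior count of 2. The scripts were tested on simulated data. Replicates are tumours the labels list separately, and p-values measure the spread between them; replicates differed beyond sampling noise, with a chi-square per degree of freedom of at least 28.19. Depth was 31.8 to 44.6 M counts, so precision was limited by the number of tumours, 3 a side.

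Genes named are those with an unadjusted p under 0.05, a symbol that is not a predicted name, at least 1 CPM and no overlap between groups (up to 10 of largest fold change each way), from lists described the 4 of smallest p or a best known member, genes called by DESeq2, the 5 of smallest p in the difference between the toxin's effects, and Egfr, Eef2, Cd40, Cd274, Cd8a, Gzmb and Ifng. The comparison, the 48 lists and this rule were chosen with earlier results of these data known.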

Additional observations from a re-analysis of the deposited data

How the results depend on the processing

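No gene was called for the combination against αCD40 under any edgeR setting tried, among them the 6 libraries alone, the 12 day 0 libraries, RLE size factors, no filter, the replicate block and each tumour left out, while DESeq2 called 7. The count at an unadjusted p under 0.05, 197, was 339 with the 12 day 0 libraries, 481 with no filter and 180 to 343 with each tumour left out, the highest without αCD40 replicate 3 (343) and then without combination replicate 3 (310). Replicate numbers gave no steady pairing of the tumours. Deviations from the group means correlated at 0.363, -0.0944 and 0.094 for numbers 1, 2 and 3, and at -0.445 to 0.353 between unlike numbers. With the replicate block 0 genes were called and 174 had an unadjusted p under 0.05, and the difference of the toxin's effects had 0 and 327. That difference had 0 calls except 7 by DESeq2 and 0 to 4 with each tumour left out. Its count at an unadjusted p under 0.05, 360, was 763 with the 12 day 0 libraries, 784 with no filter and 222 to 600 with each tumour left out. The extremes were without combination replicate 1 and without combination replicate 2, and it was 594 without vehicle replicate 1. The median over the 18 genes of D2C7-IT against vehicle ran from -0.21 (without combination replicate 2) to 0.59. Of 74 named genes, 18 changed sign with a tumour left out, from a lowest to a highest log2 fold change of Mt2 (-0.42 to 0.27), S100a8 (-1.19 to 0.19), Eef2 (-0.14 to 0.023), Tnfaip3 (-0.10 to 1.75), Ptx3 (-0.20 to 4.0), Gdf15 (-0.25 to 2.91), Fas (-0.22 to 0.99), Angptl4 (-0.20 to 0.56), Neurod2 (-0.30 to 0.97), Tcf7l2 (-0.10 to 1.53), Ppp1r1b (-1.47 to 0.35), H2-Aa (-1.73 to 0.58), Cd74 (-1.43 to 0.53), Lyz2 (-1.60 to 0.24), Cd8a (-2.11 to 0.30), Gzmb (-1.04 to 0.81), Top2a (-1.64 to 1.02) and Egfr (-0.72 to 0.27). The cause was not tested. Of 48 list medians, 32 had the other sign under at least 1 setting. With 3 tumours a side and marker levels that differ between tumours, wide intervals limit what can be said, and a gene that did not pass is not shown to be alike in both groups.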
